A study of Mus musculus with 6 samples.

Results

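The collagen genes of ear skin were compared between wild-type (WT) mice and mice with the genotype label HdR. Members were all gene symbols of the deposited table made of Col, a number, the letter a and a number, except Col17a1, which left 43 of 23518 symbols: 8 fibrillar, 7 cartilage, 9 basement membrane, 6 FACIT and 13 other collagens. FACIT stands for fibril-associated collagens with interrupted triple helices. The classes were assigned from textbook knowledge and not from values. Col21a1, a further FACIT name, was not analysed here.

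RNA sequencing was done on 3 WT and 3 HdR samples of ear skin. The design text was read as giving HdR mice a HOIL1 protein that lacks its RING1 domain. HOIL1, the product of Rbck1, belongs to the complex that joins ubiquitin into linear chains. The ears of both genotypes had received 10 mg of a cream with 5% imiquimod, an agonist of Toll-like receptors that inflames mouse skin, and were sampled on day 1. No untreated sample was analysed here, so no value below measures the effect of imiquimod. Zygosity, strain, age, sex and the cells in which the mutation is present are not stated in the labels or the design text. No label says whether the 3 samples of a group came from separate mice, so that p values measure the spread between these samples, which may in part be technical.

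Collagens are secreted proteins whose chains wind around each other in a triple helix, in which each turn needs a glycine at a fixed spacing. Fibrillar collagens form the load-bearing fibrils of dermis, while basement membrane collagens form the sheets under epidermis and around vessels, nerve and muscle. FACITs and the small fibrillar chains sit on or within fibrils and set their spacing. In skin, dermal fibroblasts make most of the fibrillar chains, and the ear also holds a plate of cartilage.

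The coding sequences show how the classes differ. A glycine is encoded by any codon of the form GGN, and runs of at least 3 units of a GGN codon followed by 2 other codons were counted in the longest transcript of each gene (GENCODE M21, GRCm38). The 8 fibrillar collagens had 2 to 4 runs each, and the longest run had a median of 338 units. The 9 basement membrane collagens had 13 to 27 runs each, and the longest had a median of only 42 units, since their helix is interrupted often. The median longest run was 113 units in the cartilage class, 42 in the FACITs and 44 in the other collagens. The cartilage class was mixed, with 339 units in Col2a1 and 338 in Col11a1 and in Col11a2. Col9a1, Col9a2 and Col9a3 had 113 each, and Col10a1 had 60. The stretches below were chosen to show these patterns, each read 5′ to 3′ from the coding sequence, with the GGN codons in capitals. Those of Col1a1, Col11a1, Col12a1 and Col6a1 come from an unbroken run, and that of Col4a1 crosses interruptions, where the spacing between capitals widens.

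Col1a1, fibrillar, codons 666 to 680: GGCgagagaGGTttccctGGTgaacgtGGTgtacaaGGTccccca

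Col11a1, cartilage, codons 1025 to 1039: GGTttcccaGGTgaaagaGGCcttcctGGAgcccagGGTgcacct

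Col4a1, basement membrane, codons 154 to 178: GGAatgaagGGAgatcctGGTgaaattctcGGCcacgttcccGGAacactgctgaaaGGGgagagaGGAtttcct

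Col12a1, FACIT, codons 2844 to 2858: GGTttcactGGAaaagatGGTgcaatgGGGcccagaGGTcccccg

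Col6a1, other, codons 376 to 390: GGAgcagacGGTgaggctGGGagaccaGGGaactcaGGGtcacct

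Levels are given as coverage, the aligned bases summed over a gene, in bases per Mb of scaled library size, so that a coverage of 1 base per Mb equals 11.7 to 23.6 read pairs of 300 bases. Libraries held 4433 to 5966 Mb, and replicates of a genotype correlated across genes with Pearson r from 0.961 to 0.989 on the log2 scale. Rbck1 had 66.6, 55.1 and 64.1 bases per Mb in WT and 23.9, 13.0 and 19.7 in HdR, without overlap, although a sum over the gene does not show which exons are missing. The label of skin was checked on 14 keratinocyte markers, none of which was at 0 in all libraries and whose summed coverage was 12352 to 13980 bases per Mb in WT and 8869 to 10421 in HdR. Transcript length moved with the genotype: the slope of the log2 deviation of a gene on log2 transcript length was 0.190, 0.0404 and 0.247 in WT and -0.125, -0.272 and -0.0805 in HdR. Long transcripts were thus lower in HdR on average, relative to short ones, and collagen transcripts are long. The part of the length trend in the collagen differences cannot be told apart from genotype, and each collagen tested is given with and without it. In bulk tissue, fewer cells of a type and less RNA per cell cannot be told apart either.

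Collagen coverage was lower in HdR than in WT ear skin. All collagens together took 0.473%, 0.387% and 0.434% of the bases in WT and 0.194%, 0.215% and 0.116% in HdR. The lowest WT share was above the highest HdR share, and the WT mean was 2.47 times the HdR mean. Shares are of all bases, without the scaling used for coverage and without removal of the length trend. When values were scaled by total bases, the median log2 change was -0.41 over all genes tested and -1.10 over the collagens tested. Of the 43 genes, 38 reached 1 base per Mb in at least 3 libraries and were tested, and 19 of these 38 fell in HdR while 0 rose (limma, Benjamini-Hochberg adjusted p under 0.05 over 15049 genes). Over all genes tested, 17.9% fell and 12.7% rose. The median log2 change (HdR minus WT) was -0.86 over the 38 collagens and -0.13 over all genes tested. In 21 of the 38 every HdR value lay below every WT value, against 30.7% of all genes tested, and in 0 every HdR value lay above, against 20.9%.

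**Figure D1:**
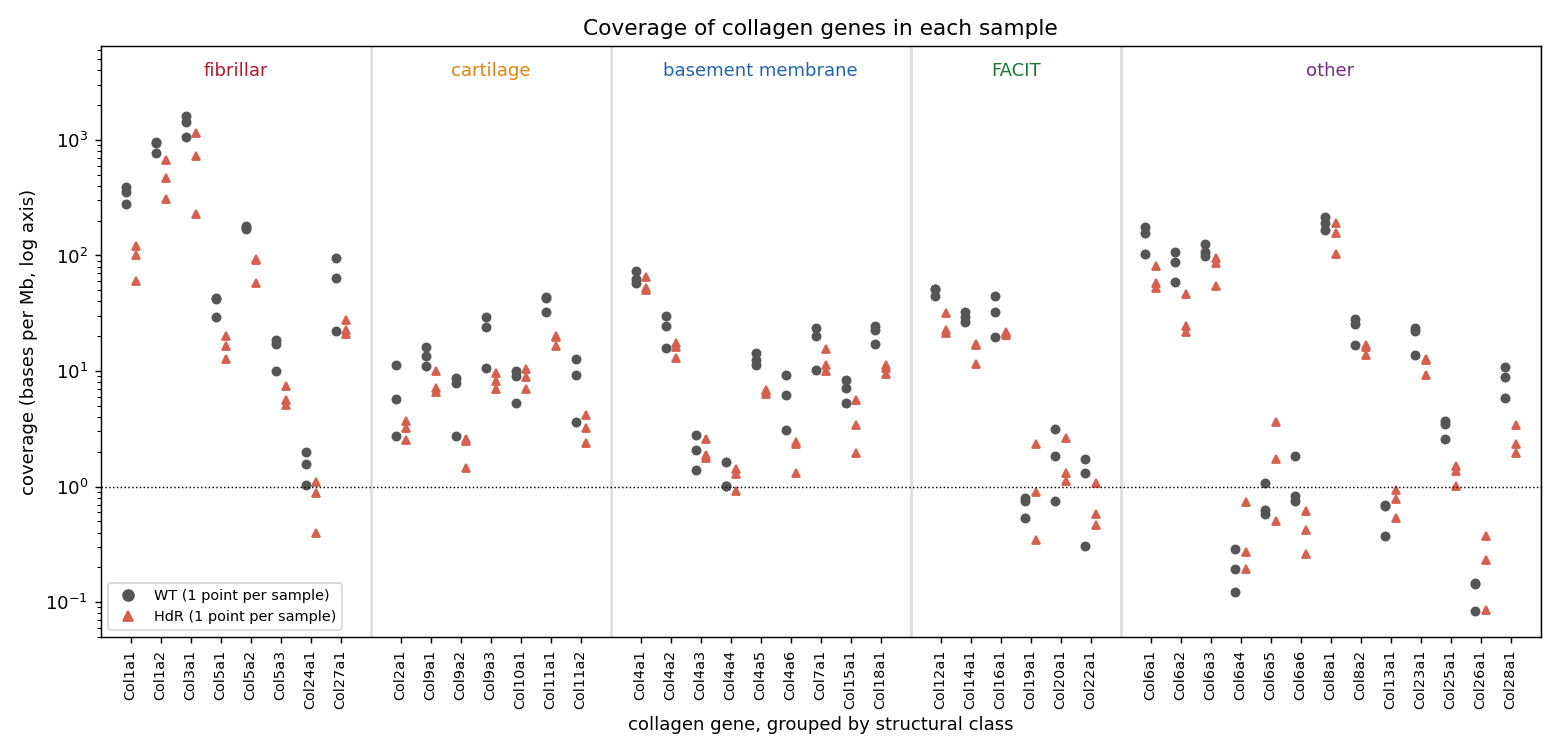
Coverage in bases per Mb (log axis) of the 43 collagen genes, grouped by class on the x axis, with 1 grey circle per WT sample and 1 red triangle per HdR sample; the dotted line is the minimum of 1 base per Mb used for testing. Col3a1, Col1a2 and Col1a1 have the highest coverage, and the circles and triangles of Col1a1 are far apart while those of Col4a1 and Col10a1 overlap.

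Removing the length trend from each library lowered the number of calls. With the trend removed, 5 of the 38 collagens fell and 0 rose, where 8.48% of all genes tested fell and 10.9% rose. The 5 were Col1a1, Col5a3, Col6a1, Col6a2 and Col28a1, all of them among the 19. The median log2 change was then -0.41 over the collagens and 0.00 over all genes tested. The collagens tested had a median transcript length of 6083.5 nucleotides against 3271 over all genes tested with a length, and 27 of the 38 lay in the upper 2 length deciles, whose median log2 changes were -0.46 and -0.58. Compared with the median of the decile each belongs to, 28 of the 38 collagens were lower: 7 of 8 fibrillar, 6 of 7 cartilage, 5 of 9 basement membrane, 3 of 5 FACIT and 7 of 9 other collagens. By definition as many genes lie below a decile median as above it, and the basement membrane and FACIT counts are near that split.

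**Figure D2:**
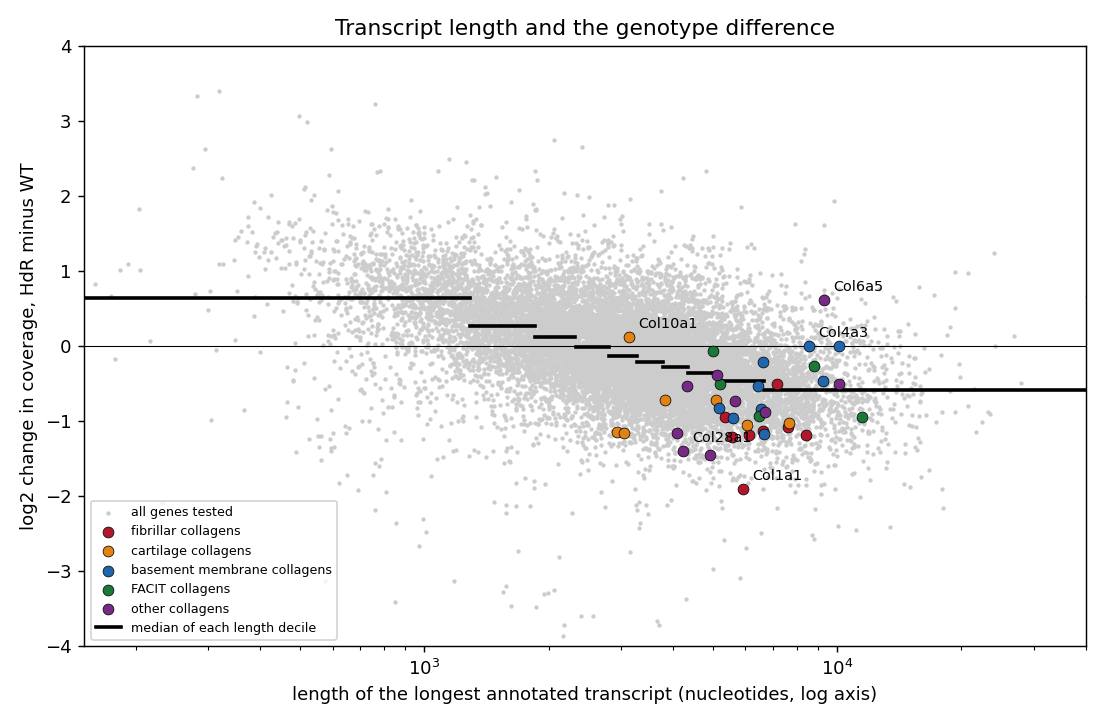
Log2 change in coverage (HdR minus WT) against the length of the longest annotated transcript in nucleotides (log axis) for all genes tested with a length (grey) and for the 38 collagens tested (coloured by class); black bars are the medians of length deciles, and a few of the shortest or longest grey points lie outside the axis. The bars descend from 0.64 for the shortest decile to -0.58 for the longest, and 28 of the 38 collagens lie below the bar of their decile.

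The counts also depended on single libraries. Without WT replicate 1, only Col1a1 of the 19 passed, and 1.34% of all genes fell. Without WT replicate 3, 11 collagens passed and 4.77% of all genes fell, and without HdR replicate 2, 12 passed and 7.64% fell. The calls lost without WT replicate 3 were those of Col1a2, Col9a1, Col9a2, Col9a3, Col4a5, Col4a6, Col23a1 and Col25a1. Those lost without HdR replicate 2 were Col5a3, Col9a1, Col9a2, Col9a3, Col4a6, Col6a2 and Col23a1. Without HdR replicate 1 the 6 calls of Col1a2, Col9a1, Col9a2, Col9a3, Col4a6 and Col23a1 were lost, without HdR replicate 3 those of Col1a2, Col9a2, Col9a3 and Col23a1, and without WT replicate 2 that of Col1a2. Without a filter on low values 13 passed (4.84% of all genes fell), and scaling by total bases gave 26 (28.5% of all genes fell). Taking the replicate number as a block gave 23 (27.2% of all genes fell), and with the length trend also removed 10 fell and 1 rose (14.6% of all genes fell and 16.5% rose). With length and GC trends both removed, a setting chosen after seeing the data, 6 fell and 1 rose (9.56% of all genes fell and 11.9% rose). The 19 changes were negative in every setting in which the gene was tested. There were 24 settings for 16 of them and 23 for Col9a2, Col4a6 and Col25a1, which were not tested with the filter at 5 bases per Mb. The 19 had been picked as lower in the same 6 libraries, so their stable sign is a description and no further support. Of the 19 not called, 4 were negative in every setting. Each of these adjusted p values came from limma with Benjamini-Hochberg adjustment.

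The 5 calls made with the length trend removed rested on few samples. None of the 5 passed without WT replicate 1 (0.613% of all genes fell), and only Col1a1 did without WT replicate 3 (1.5%) or without HdR replicate 3 (4.61%). Col1a1, Col6a1 and Col6a2 passed without HdR replicate 1 (4.48%), Col1a1 and Col28a1 without HdR replicate 2 (2.8%), and all 5 without WT replicate 2 (14.4%). Col1a1 was thus the collagen called in most settings, 23 of 24.

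Fibrillar collagens form the bulk of dermal collagen, and 5 of the 8 tested fell (62.5%): Col1a1, Col1a2, Col5a1, Col5a2 and Col5a3. All 8 lie in the upper 2 length deciles, where 31.8% and 43.7% of all genes fell. As a class they took 0.358%, 0.309% and 0.300% of the bases in WT and 0.134%, 0.165% and 0.0683% in HdR. Their median log2 change was -1.16, and -0.65 with the length trend removed. In that setting 2 of the 8 fell (Col1a1 and Col5a3), and 8.48% of all genes.

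Col1a1 encodes the main chain of type I collagen, the most abundant protein of dermis, and lies at chr11:94936224-94953042 (GRCm38). Its coverage was 394, 280 and 357 bases per Mb in WT and 101, 120 and 60.4 in HdR. The groups were far apart, with HdR replicate 3 lowest. The WT mean was 3.66 times the HdR mean, and the log2 difference of -1.90 had an SE of 0.26 and an adjusted p of 0.00503 in limma. Without the length trend it was -1.45 (SE 0.28, limma adjusted p = 0.0165). This was the lowest log2 change among the collagens tested.

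Col1a2, at chr6:4504814-4541544, encodes the partner chain of type I collagen. It had 964, 932 and 771 bases per Mb in WT and 469, 669 and 309 in HdR, again without overlap. The log2 change was -0.94 (SE 0.28, adjusted p = 0.0354), and -0.53 (SE 0.32, adjusted p = 0.243) without the length trend. The call was also lost without each of WT replicates 1, 2 and 3 and HdR replicates 1 and 3.

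Col3a1, the chain of type III collagen that forms fine fibrils together with type I, is at chr1:45311538-45349706. It had the highest coverage per kb of transcript of all 43 members in both genotypes, 245 in WT and 127 in HdR. Its coverage was 1436, 1595 and 1065 bases per Mb in WT and 730, 1156 and 229 in HdR. The groups overlapped, since HdR replicate 2 was above WT replicate 3, and HdR replicate 3 was far below the rest. The log2 change of -1.22 (SE 0.51) had an adjusted p of 0.0939 in limma, and 0.0122 with the replicate block. In both genotypes replicate 2 was highest and replicate 3 lowest. Without the length trend the change was -0.79 (limma adjusted p = 0.322), and with the block in addition the adjusted p was 0.0828, so that the call was lost again.

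Type V collagen is a minor chain set buried inside type I fibrils, where it starts fibril assembly. Col5a1, at chr2:27886425-28039514, had 42.4, 29.5 and 43.3 bases per Mb in WT and 16.4, 19.9 and 12.7 in HdR. Col5a2, at chr1:45374321-45503282 and 24614 bases from Col3a1 on the opposite strand, had 181, 169 and 172 in WT and 91.5, 92.6 and 57.2 in HdR. In neither gene did the genotypes overlap, and the WT replicates of Col5a2 were close together. The log2 changes were -1.18 for Col5a1 (SE 0.22, limma adjusted p = 0.0115) and -1.14 for Col5a2 (SE 0.20, limma adjusted p = 0.0106). Once the length trend was removed they were -0.64 (limma adjusted p = 0.0650) and -0.65 (limma adjusted p = 0.0753). Col5a3, a further type V chain with a more restricted tissue range, had a log2 change of -1.18 (limma adjusted p = 0.0156), and of -0.72 (limma adjusted p = 0.0422) without that trend. Col24a1 and Col27a1, fibrillar chains with shorter helices best known from bone and cartilage, had log2 changes of -0.51 (limma adjusted p = 0.110) and -1.08 (limma adjusted p = 0.0847). Once length was accounted for these were -0.00 (limma adjusted p = 0.998) and -0.56 (limma adjusted p = 0.293). Col27a1 passed with the replicate block (limma adjusted p = 0.0258), but not with the block and the length trend removed (limma adjusted p = 0.206).

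The class named for cartilage holds chains of the fibrils and of the fibril surface of cartilage. Of the 7 tested 4 fell (57.1%): Col9a1, Col9a2, Col9a3 and Col11a1. The 7 lie in length deciles 5, 7, 8, 9 and 10, where 12.9%, 21.0%, 25.0%, 31.8% and 43.7% of all genes fell. The class share of all bases was 0.0132%, 0.00698% and 0.0154% in WT and 0.00525%, 0.00408% and 0.00479% in HdR. The median log2 change was -1.03, and -0.51 with the length trend removed, when 0 of the 7 passed. With length and GC trends removed 2 fell, Col9a3 and Col11a1.

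Col11a1, whose chain joins type II collagen in cartilage fibrils and is also made by activated fibroblasts, is at chr3:114030540-114220718. It had 44.0, 32.5 and 42.7 bases per Mb in WT and 19.8, 20.2 and 16.6 in HdR. The groups did not overlap, and the log2 change was -1.03 (SE 0.18, limma adjusted p = 0.00987). After removal of the length trend it was -0.51 (limma adjusted p = 0.0582). Its partner Col11a2 had -1.05 and did not pass (limma adjusted p = 0.0597), nor did the trend-free value of -0.59 (limma adjusted p = 0.243).

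The type IX chains form a FACIT that coats type II fibrils, and they are counted here in the cartilage class only. Col9a1 (chr1:24177610-24252684) had 13.6, 11.1 and 16.1 bases per Mb in WT and 7.08, 6.54 and 10.1 in HdR. Col9a3 (chr2:180597790-180622189) had 24.1, 10.6 and 29.3 in WT and 9.60, 7.04 and 8.22 in HdR. In both genes the HdR values lay below the WT values, but WT replicate 2 came close to HdR. The log2 changes were -0.72 for Col9a1 (SE 0.22, limma adjusted p = 0.0374), -1.14 for Col9a2 (SE 0.36, limma adjusted p = 0.0406) and -1.16 for Col9a3 (SE 0.33, limma adjusted p = 0.0314). Without the length trend they were -0.45 (limma adjusted p = 0.115), -1.04 (limma adjusted p = 0.0672) and -1.03 (limma adjusted p = 0.0521), and none of the 3 passed. All 3 calls were also lost when WT replicate 1 or 3, or HdR replicate 1 or 2, was left out, and those of Col9a2 and Col9a3 when HdR replicate 3 was left out. Col9a3 overlaps Tcfl5 on the opposite strand over 6.07% of its exon bases, and whether reads were assigned by strand is not stated in the labels.

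Col2a1, the main fibrillar chain of cartilage, had only 2.71 to 11.4 bases per Mb in WT and 2.53 to 3.70 in HdR, with a log2 change of -0.71 (limma adjusted p = 0.172), and of -0.32 (limma adjusted p = 0.539) without the length trend. Col10a1, the chain of hypertrophic cartilage, had 5.28 to 9.99 in WT and 6.94 to 10.4 in HdR, with a log2 change of 0.12 (95% interval -0.45 to 0.70, limma adjusted p = 0.726), and of 0.27 (limma adjusted p = 0.443) without the length trend. Among the 14 cartilage cell markers tested outside the collagens, 2 rose and 4 fell, where 12.7% of all genes tested rose and 17.9% fell. With the length trend removed 3 of these markers rose and 3 fell, against 10.9% and 8.48% of all genes. Ucma, a small protein of the cartilage matrix, rose from a mean of 13.0 ± 1.43 to 45.2 ± 11.8 bases per Mb (SD, n = 3; log2 change 1.70, limma adjusted p = 0.00369) and Epyc, a proteoglycan of growth cartilage, by 1.19 on the log2 scale (limma adjusted p = 0.0142). Chad, which encodes chondroadherin, fell by 1.41 (limma adjusted p = 0.0281) and Matn4, a matrilin, by 0.97 (limma adjusted p = 0.0166). Ucma, Epyc and Chad also passed with the length trend removed, but Matn4 did not. The summed coverage of the 15 cartilage markers listed ran from 1332 to 1813 bases per Mb in WT and from 908 to 1315 in HdR, without overlap, and none was at 0 in all libraries. Their part in the collagen differences was not tested.

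Basement membrane collagens fell in 3 of 9 cases (33.3%), Col4a5, Col4a6 and Col18a1. All 9 lie in the upper 2 length deciles, where 31.8% and 43.7% of all genes fell. Their share of all bases was 0.0184%, 0.0125% and 0.0223% in WT and 0.00993%, 0.00891% and 0.0107% in HdR. The median log2 change was -0.53, and -0.05 with the length trend removed, when 0 of the 9 passed.

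Type IV collagen is the network of every basement membrane, and its 6 chains are encoded by pairs of adjacent genes on opposite strands. Col4a1 and Col4a2, the chains found in all basement membranes, overlap by 22 bases on chromosome 8. Col4a1 had 63.1, 57.5 and 72.7 bases per Mb in WT and 51.8, 64.6 and 50.7 in HdR. Col4a2 had 24.3, 15.8 and 30.2 in WT and 17.4, 13.0 and 16.2 in HdR. The genotypes overlapped in both genes. The log2 change of Col4a1 was -0.21 (95% interval -0.59 to 0.17, limma adjusted p = 0.352), and it was 0.28 with the length trend removed. That of Col4a2 was -0.53 (limma adjusted p = 0.119), with an adjusted p of 0.0301 with the replicate block. Its trend-free value was -0.05 (limma adjusted p = 0.850, and 0.815 with the block).

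Col4a5 and Col4a6, the pair on the X chromosome, form the network under epidermis and around smooth muscle. Col4a5 (chrX:141475385-141689234) had 12.4, 11.2 and 14.4 bases per Mb in WT and 6.84, 6.32 and 6.72 in HdR. Col4a6 (chrX:141165403-141474076) had 6.21, 3.12 and 9.20 in WT and 2.44, 1.30 and 2.32 in HdR. The genotypes did not overlap in either gene, and the HdR replicates of Col4a5 were close together. The log2 changes were -0.84 (SE 0.17, limma adjusted p = 0.0142) for Col4a5 and -1.18 (SE 0.33, limma adjusted p = 0.0299) for Col4a6. Once the length trend was removed they were -0.36 (limma adjusted p = 0.116) and -0.69 (limma adjusted p = 0.0974). Col4a3 and Col4a4, the pair of the kidney and lung network, lie 71 bases apart and had at most 2.81 bases per Mb in any sample. Col4a3 also overlaps C430014B12Rik over 5.65% of its exon bases. For Col4a3 and Col4a4 the log2 changes were 0.01 (95% interval -0.50 to 0.51) and -0.00 (95% interval -0.45 to 0.44). Values near 0 depended on the setting, since removal of the length trend gave 0.55 (95% interval 0.06 to 1.05, limma adjusted p = 0.101) and 0.57 (95% interval 0.10 to 1.04, limma adjusted p = 0.0822).

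Col18a1, a collagen of vessel and epidermal basement membranes whose end is cleaved off as endostatin, is at chr10:77052178-77166548. It had 22.7, 17.2 and 24.3 bases per Mb in WT and 10.7, 11.3 and 9.39 in HdR. No HdR sample came near the WT range, and the log2 change was -0.96 (SE 0.19, limma adjusted p = 0.0127). After removal of the length trend it was -0.53 (limma adjusted p = 0.0589). Col15a1, its closest relative, had a log2 change of -0.83 (limma adjusted p = 0.0632, and 0.0111 with the replicate block). The trend-free value was -0.43 (limma adjusted p = 0.241, and 0.126 with the block), so that this call was lost again. Col7a1, which forms the anchoring fibrils that tie epidermis to dermis, had -0.46 (95% interval -1.14 to 0.21, limma adjusted p = 0.250), and 0.10 (limma adjusted p = 0.768) without the length trend.

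Of the FACIT class, in which the type IX chains are not counted, 2 of the 5 tested fell (40.0%), Col12a1 and Col14a1. These 5 lie in length deciles 8, 9 and 10, where 25.0%, 31.8% and 43.7% of all genes fell. The class share of all bases was 0.0138%, 0.0101% and 0.0147% in WT and 0.00670%, 0.00524% and 0.00558% in HdR. Col12a1, whose long chain bridges type I fibrils in tissue under tension, is at chr9:79598991-79718831 and has the longest transcript of the members tested, 11511 nucleotides. It had 50.9, 51.0 and 45.0 bases per Mb in WT and 31.5, 22.9 and 21.4 in HdR. Col14a1, which limits the sideways growth of fibrils, is at chr15:55307750-55520803 and had 32.4, 26.7 and 29.1 in WT and 16.7, 17.1 and 11.4 in HdR. The genotypes were clearly apart in both genes.

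The log2 changes were -0.94 for Col12a1 (SE 0.18, limma adjusted p = 0.0127) and -0.94 for Col14a1 (SE 0.19, limma adjusted p = 0.0142). Without the length trend they were -0.35 (limma adjusted p = 0.240) and -0.46 (limma adjusted p = 0.137), and 0 of the 5 FACITs passed. Col16a1, found near the basement membrane and in cartilage, had 32.4, 19.7 and 44.3 bases per Mb in WT and 21.5, 21.7 and 20.5 in HdR. The WT samples spread widely around the HdR values, and the log2 change was -0.50 (limma adjusted p = 0.163), or -0.10 (limma adjusted p = 0.774) without the length trend. Col20a1 and Col22a1, the latter a chain of tissue junctions, were near the detection limit with at most 3.14 bases per Mb, and had log2 changes of -0.07 and -0.26 that did not pass. Their trend-free values of 0.32 and 0.29 did not pass either. Col19a1 reached 1 base per Mb in a single library, at 2.36 in HdR replicate 2, and was not tested.

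The other collagens are the microfibril, network and membrane-bound chains, and 5 of the 9 tested fell (55.6%): Col6a1, Col6a2, Col23a1, Col25a1 and Col28a1. These 9 lie in length deciles 7, 8, 9 and 10, where 21.0%, 25.0%, 31.8% and 43.7% of all genes fell. The class took 0.0702%, 0.0477% and 0.0817% of the bases in WT and 0.0381%, 0.0312% and 0.0264% in HdR. The median log2 change was -0.73, and -0.29 with the length trend removed. In that setting Col6a1, Col6a2 and Col28a1 fell, and 8.48% of all genes.

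Type VI collagen forms beaded microfibrils around cells, assembled from the products of Col6a1, Col6a2 and a longer chain, usually that of Col6a3. Col6a1 (chr10:76708792-76726168) had 156, 102 and 177 bases per Mb in WT and 81.2, 52.7 and 58.0 in HdR. Col6a2 (chr10:76595762-76623630) had 88.3, 58.8 and 106 in WT and 46.0, 21.9 and 24.7 in HdR. The genotypes did not overlap in either gene, with WT replicate 2 nearest to HdR. The log2 changes were -1.16 for Col6a1 (SE 0.24, limma adjusted p = 0.0143) and -1.46 for Col6a2 (SE 0.30, limma adjusted p = 0.0142). Once the length trend was removed they were -0.86 (limma adjusted p = 0.0255) and -1.08 (limma adjusted p = 0.0265). Col6a3 had 108, 98.3 and 125 in WT and 86.6, 96.0 and 54.3 in HdR, which did not overlap, but its log2 change of -0.51 did not pass (limma adjusted p = 0.106). After removal of the length trend the Col6a3 difference was 0.06.

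Col28a1, a collagen with von Willebrand domains best known from peripheral nerve, is at chr6:7997808-8192617. It had 10.9, 5.79 and 8.81 bases per Mb in WT and 2.34, 3.44 and 1.94 in HdR. The WT mean was 3.30 times the HdR mean, without overlap, and the log2 change was -1.39 (SE 0.26, limma adjusted p = 0.0115). Without the length trend it was -1.08 (limma adjusted p = 0.0292). Among 12 Schwann cell markers tested, the calcium-binding protein gene S100b rose by a log2 change of 1.09 (limma adjusted p = 0.00696) and Prx, which encodes the myelin protein periaxin, fell by 1.31 (limma adjusted p = 0.0128). The summed coverage of these markers was 418 to 427 bases per Mb in WT and 479 to 551 in HdR, and its part in the Col28a1 difference was not tested.

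Col8a1, a short network-forming chain of vessel walls and of basement membranes, had 190.0, 167 and 215 bases per Mb in WT and 157, 189 and 103 in HdR. The groups overlapped and the log2 change was -0.38 (95% interval -0.91 to 0.14, limma adjusted p = 0.220), and 0.01 (limma adjusted p = 0.982) without the length trend. Its partner Col8a2 had -0.53 (limma adjusted p = 0.0822), and -0.21 (limma adjusted p = 0.444) without that trend. The membrane-bound collagen genes Col23a1 and Col25a1 had log2 changes of -0.73 (limma adjusted p = 0.0448) and -0.88 (limma adjusted p = 0.0159), and neither passed with the length trend removed (-0.29 and -0.39). Col6a5, a further type VI chain related to that of Col6a3, was one of 3 members tested whose log2 change was above 0, with Col10a1 and Col4a3. It had 0.628, 0.581 and 1.07 bases per Mb in WT and 3.64, 1.74 and 0.509 in HdR. Its log2 change was 0.62 (limma adjusted p = 0.208), and 1.18 (limma adjusted p = 0.0592) without the length trend. It was tested in 17 settings and passed in 4. These were length and GC trends removed (1.22, limma adjusted p = 0.0473), length trend removed with the block (1.18, limma adjusted p = 0.0420), and HdR replicate 3 left out, as measured (1.03, limma adjusted p = 0.0345) and with the length trend removed (1.66, limma adjusted p = 0.0189). Col6a4, Col6a6, Col13a1 and Col26a1 were below 1 base per Mb in all libraries but 1 and were not tested, the exception being Col6a6 at 1.84 in WT replicate 1.

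**Figure D3:**
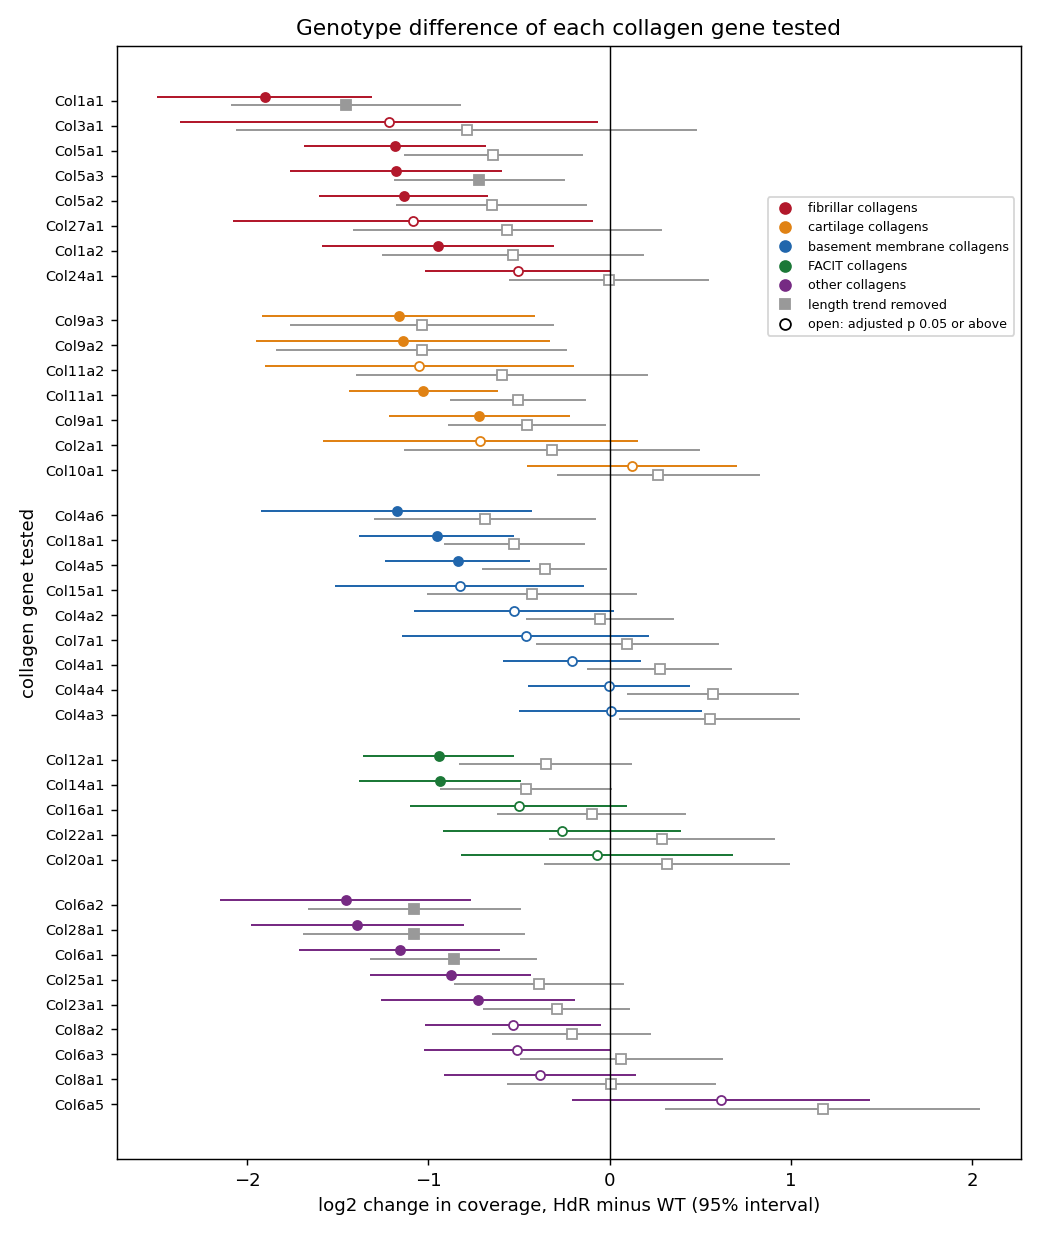
Log2 change in coverage (HdR minus WT, x axis) with its 95% interval from limma for each of the 38 collagens tested (y axis), in colour as measured and in grey with the length trend removed; filled symbols passed an adjusted p of 0.05. Of the coloured symbols 19 are filled, all left of 0, and of the grey ones 5 are filled.

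Comparing chains of one molecule within a library removes the scaling of that library. Type I collagen is mostly assembled from 2 products of Col1a1 and 1 of Col1a2, yet per kb of transcript Col1a1 coverage was below Col1a2 coverage in every sample. The log2 ratio of Col1a1 to Col1a2, per kb, was -1.44, -1.88 and -1.26 in WT and -2.36, -2.63 and -2.50 in HdR. Every HdR ratio was below every WT ratio, and the means corresponded to 0.347 in WT and 0.177 in HdR. The difference was -0.97 on the log2 scale, -0.92 with the length trend removed and -0.84 with length and GC trends removed, without overlap in each case. Leaving out any one library gave -1.15 to -0.84.

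For the other pairs of chains the genotypes overlapped. The log2 ratio of Col3a1 to Col1a1 was 2.08 ± 0.48 in WT and 2.77 ± 0.69 in HdR (SD, n = 3). That of Col5a1 to Col5a2 was -2.54 ± 0.28 and -2.63 ± 0.17, and that of Col8a1 to Col8a2 was 2.81 ± 0.23 and 2.98 ± 0.32. That of Col4a1 to Col4a2 was 1.46 ± 0.32 in WT and 1.81 ± 0.40 in HdR, and that of Col4a5 to Col4a6 was 1.19 ± 0.61 and 1.79 ± 0.45. Col6a1 to Col6a2 was 1.05 ± 0.04 in WT, nearly the same in the 3 samples, and 1.37 ± 0.25 in HdR. Col6a3 to Col6a1 was -1.67 ± 0.27 in WT and -1.01 ± 0.51 in HdR, and these groups separated once the length trend was removed, with a difference of 0.93.

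**Figure D4:**
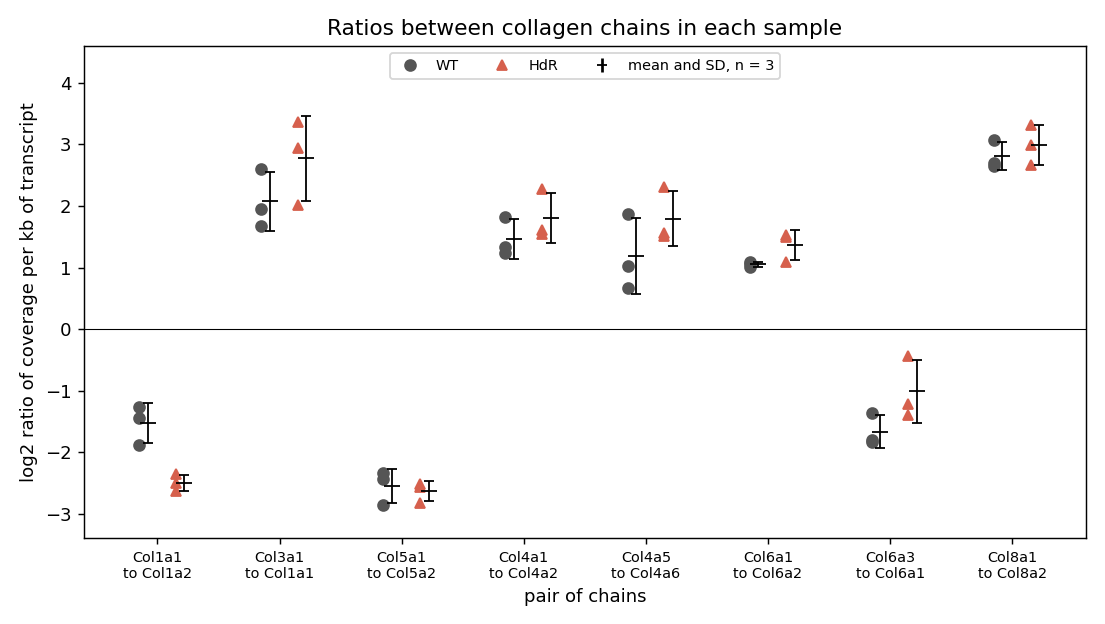
Log2 ratio of coverage per kb of transcript for 8 pairs of collagen chains, with 1 grey circle per WT sample, 1 red triangle per HdR sample and black bars for mean and SD (n = 3). Only for Col1a1 to Col1a2 do the circles, from -1.88 to -1.26, and the triangles, from -2.63 to -2.36, fail to overlap.

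The order of the levels was much the same in both genotypes. Per kb of transcript, mean WT coverage was highest for Col3a1 (245 bases per Mb per kb), followed by Col1a2 (166) and Col1a1 (58.0), and the HdR means were 127, 90.2 and 15.8. Next over all samples came Col8a1 (37.3 in WT and 29.3 in HdR) and Col6a1 (35.5 and 15.6), so that in HdR the mean of Col8a1 was above that of Col1a1. Col8a1 and Col6a1 had WT means that differed by less than the spread of Col6a1 between replicates. The fibrillar class supplied 69.1% to 80.0% of collagen bases in WT and 59.0% to 77.0% in HdR, and the basement membrane class 3.24% to 5.13% in WT and 4.15% to 9.21% in HdR. These ranges overlapped, and the highest basement membrane share and the lowest fibrillar share were both those of HdR replicate 3.

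**Figure D5:**
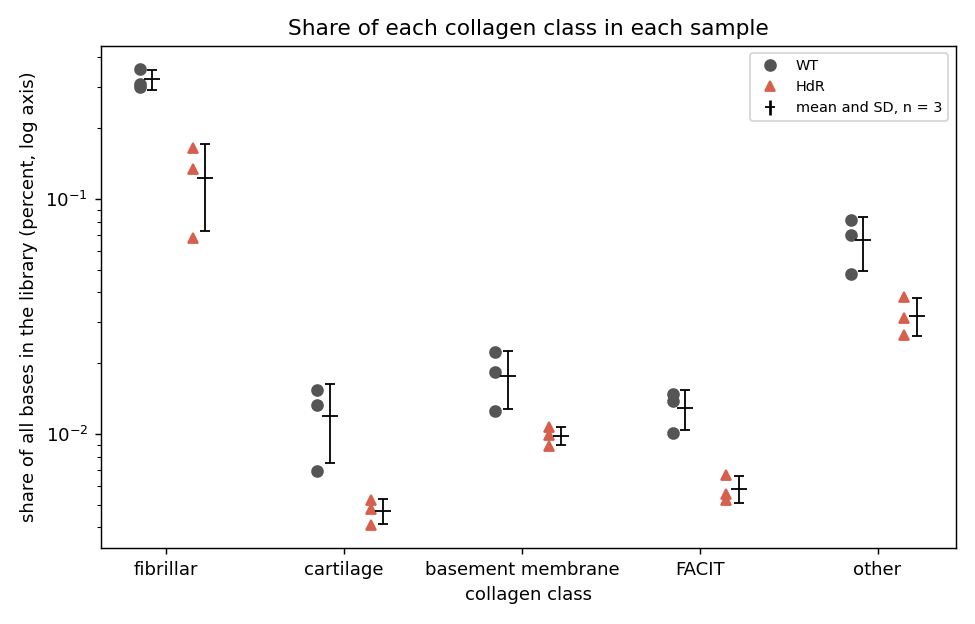
Share of all bases of a library (percent, log axis) taken by each collagen class, with 1 grey circle per WT sample, 1 red triangle per HdR sample and black bars for mean and SD (n = 3). In each of the 5 classes every HdR share lies below every WT share, with a ratio of WT to HdR means from 1.80 for basement membrane to 2.63 for fibrillar collagens. Shares are not scaled further, and with scaling by total bases the median log2 change over all genes tested was -0.41. The length trend is not removed from them either. All basement membrane and fibrillar collagens lie in the upper 2 length deciles, whose median log2 changes were -0.46 and -0.58 with the scaling used for coverage.

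Genes whose products fold and modify procollagen in the endoplasmic reticulum were measured next. Of 26 tested, 7 fell and 1 rose, and 5 fell and 3 rose with the length trend removed. With the replicate block 13 fell and 3 rose. Counts as measured, here and below, stand against 17.9% of all genes that fell and 12.7% that rose. Those with the length trend removed stand against 8.48% and 10.9%, and those with the replicate block against 27.2% that fell. The share of all genes that rose with the block is not given here. Creb3l1, a transcription factor of collagen secretion, fell from 9.62 ± 1.88 to 3.41 ± 0.411 bases per Mb (SD, n = 3; log2 change -1.26, limma adjusted p = 0.00800). Plod3, a lysyl hydroxylase that also adds sugars to collagen, fell by 0.91 on the log2 scale (limma adjusted p = 0.0120), and P3h1, a prolyl 3-hydroxylase, fell by 0.86 (limma adjusted p = 0.0183). Tmem38b, an ion channel of the endoplasmic reticulum needed for collagen modification, rose by 0.83 (limma adjusted p = 0.0150). All 4 also passed once that trend was removed.

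Propeptide cleavage and cross-linking take place outside the cell. Of 12 genes tested, 5 fell and 1 rose, and 3 fell and 1 rose with the length trend removed. Adamts14, a procollagen N-proteinase, had 33.0, 16.5 and 46.3 bases per Mb in WT and 9.36, 7.05 and 9.63 in HdR, with a log2 change of -1.66 (limma adjusted p = 0.0131). The C-proteinase gene Bmp1 fell by 0.91 on the log2 scale (limma adjusted p = 0.0145) and the lysyl oxidase genes Loxl1 and Loxl4 by 1.06 (limma adjusted p = 0.0156) and 0.67 (limma adjusted p = 0.0271). Of these, Loxl4 did not pass with the length trend removed (limma adjusted p = 0.0922).

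Proteins that bind fibrils moved in both directions. Of 20 genes tested, 6 fell and 2 rose, and 4 fell and 4 rose with the length trend removed. Bgn, which encodes the proteoglycan biglycan, had 408, 314 and 419.8 bases per Mb in WT and 164, 93.9 and 134 in HdR, with a log2 change of -1.56 (limma adjusted p = 0.00629). Kera, the gene of keratocan, fell by 0.93 (limma adjusted p = 0.0180). Omd, the gene of osteomodulin, rose from 254 ± 106 to 692 ± 161 (SD, n = 3; log2 change 1.50, limma adjusted p = 0.0130), and Dpt, the gene of dermatopontin, by 0.90 (limma adjusted p = 0.0181). The trend-free values of these 4 passed too.

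Of 13 genes for collagen receptors and uptake, 5 fell and 1 rose, and 1 fell and 2 rose with the length trend removed. Itga1, an integrin chain that binds type IV and type I collagen, fell by 1.21 on the log2 scale (limma adjusted p = 0.0106; 0.0445 without that trend). Mrc1, the macrophage mannose receptor, rose by 0.85 (limma adjusted p = 0.0262). The receptor genes Ddr1 and Itgb1 fell by 0.77 (limma adjusted p = 0.0290) and 0.62 (limma adjusted p = 0.0293) and did not pass with the trend removed. Of 12 collagen-cleaving proteases, 16.7% fell and 8.33% rose, no larger shares than over all genes. The 2 that fell were Mmp2 (log2 change -0.78, limma adjusted p = 0.0371) and Mmp14 (-0.53, limma adjusted p = 0.0401), and the 1 that rose was the neutrophil collagenase gene Mmp8 (1.75, limma adjusted p = 0.00987). Of these 3, Mmp8 alone passed with the length trend removed.

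Ccn2 and Ccn1, listed for the TGF-beta pathway, were not found under these symbols and are left out. Of 20 genes of this pathway, which drives collagen transcription in fibroblasts, 5 fell (25.0%) and 0 rose. With the length trend removed 2 fell (10.0%) and 1 rose (5.00%), shares near or below those of all genes, and with the replicate block 10 fell and 0 rose. Postn, a matrix protein induced by TGF-beta, had 2255, 1875 and 1769 bases per Mb in WT and 1072, 649 and 497 in HdR, with a log2 change of -1.48 (limma adjusted p = 0.0131; 0.0316 with the trend removed). Acta2, the smooth muscle and myofibroblast actin, fell by 0.67 (limma adjusted p = 0.0323; 0.0248 with the trend removed). Smad2 and Smad4, which carry the signal to the nucleus, fell by 0.69 (limma adjusted p = 0.0268) and 0.53 (limma adjusted p = 0.0373), and neither passed with the trend removed. Of 14 laminins and other partners of collagens in basement membranes, 6 fell and 0 rose. Agrn, the gene of agrin, fell by 1.22 (limma adjusted p = 0.0173) and Lama4, a laminin chain of vessels and muscle, by 0.65 (limma adjusted p = 0.0212). Once the length trend was removed 0 fell and 2 rose. These 2, Lama2 and Hspg2, a laminin chain and the core protein of perlecan, are named after their values were seen.

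Markers of the cells that make collagen did not move as one. Of 17 fibroblast markers, 2 fell (11.8%) and 1 rose (5.88%), both below the shares of all genes as measured. The counts were the same with the length trend removed. With the replicate block 4 fell and 2 rose. Dpp4, a marker of papillary and fascial fibroblasts, fell by 1.19 (limma adjusted p = 0.00807), while S100a4, also made by leukocytes, rose by 1.69 (limma adjusted p = 0.00964). The summed coverage of fibroblast markers ran from 3385 to 4976 bases per Mb in WT and from 3557 to 5213 in HdR, and these ranges overlapped. No marker in any list of cell types was at 0 in all libraries. Markers of other tissue moved with the genotypes: 8 of 12 adipocyte markers rose and 0 fell, with sums of 1110 to 1150 in WT and 2865 to 3897 in HdR, and 6 of 14 skeletal muscle markers rose and 0 fell, with sums of 2953 to 4609 and 5791 to 6587. The muscle markers did not move one way, since 8 of the 14 had a log2 change below 0 and with the replicate block 6 rose and 4 fell. Among the 12 adipocyte markers 4 had a log2 change below 0, and with the replicate block 8 rose and 1 fell. With the length trend removed 3 muscle and 7 adipocyte markers rose, and 0 of either list fell. Of 16 endothelial and mural markers 3 fell (18.8%, near the share of all genes) and 0 rose, with sums of 544 to 603 in WT and 447 to 526 in HdR, and with the replicate block 7 fell and 1 rose. Of 14 keratinocyte markers 6 fell and 0 rose, and 2 fell and 1 rose with the length trend removed. The part of these markers' cells in the collagen differences was not tested.

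Of the genes named from these lists and called as measured, Creb3l1, Bgn, Dpp4, Ucma, Epyc and S100b passed with any 1 sample left out. All the others lost their call at least without WT replicate 1.

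The genes closest to Col1a1 were sought by the Pearson r of log2 values over the 6 samples after the genotype means were removed. Outside the collagens these were Pcolce (r = 0.992), Maged2 (0.991), E430018J23Rik (0.986), Gsta4 (0.985) and Ffar2 (0.983). Pcolce encodes an enhancer of procollagen C-proteinase, and its own log2 change of -0.38 did not pass (limma adjusted p = 0.106). Among the collagens, r with Col1a1 was 0.98 for Col14a1, 0.95 for Col8a1, 0.93 for Col6a3, 0.92 for Col5a1 and for Col5a2, and 0.82 for Col1a2 and for Col3a1. It was -0.77 for Col25a1 and -0.62 for Col15a1. These values are a description over 6 samples that share libraries, scaling and the length trend.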

How the data were processed

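RNA was measured in 6 samples of imiquimod-treated ear skin, with libraries made by a NEBNext Ultra II kit and sequenced as read pairs on a NovaSeq, per the labels' protocols. The deposited values are coverage, a signal that sums aligned bases per gene, since values gather at multiples of 300 bases (1656 values equal 300). GRCm38 is named in the submitters' processing notes, with aligner, counter, annotation and strandedness not given in the sources used here. Coverage is not a count, so the test for signal was used. Values were scaled by the trimmed mean of M values (trims of 30% and 5%) to bases per Mb and put on the log2 scale after adding a pseudocount of 1, so that changes of low genes are understated. The 15049 genes that reached 1 base per Mb in 3 or more libraries were tested with limma (trend and robust) and Benjamini-Hochberg adjustment at 0.05 over all of them. A fold is the ratio of mean coverage.

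To remove the length trend, a spline of 4 degrees of freedom on log2 transcript length (GENCODE M21, longest transcript) was subtracted in each library, for the 14901 genes (99.0%) with a length. Alternatives were other scalings, no filter or one at 5, a pseudocount of 0.1, the replicate block and leaving out each sample. Samples of the 2 genotypes share replicate numbers in the labels. Deviations from group means over 15049 genes correlated by 0.163, 0.416 and 0.366 between same-numbered samples and by -0.377 to 0.159 between others, so the numbers were taken to pair the samples. For WT replicate 1 this is weak, since its r was 0.163 with HdR replicate 1 and 0.159 with HdR replicate 3. The main comparison does not use the pairing. The pairing comes from these values and not from a stated litter or day.

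The members and gene lists were chosen with earlier results of these data known. By rule, values in every sample were given for the 3 collagens per class with the smallest p and the 2 with the highest coverage per kb, and each other list gave at most 4 names, ranked by p. Col6a3 and Col6a5 were added after their values were seen. The fits were tested on simulated data. R 4.3.3, limma 3.58.1, Python 3.11.15, numpy 2.4.6, pandas 2.3.3 and matplotlib 3.10.9 were used.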

Additional observations from a re-analysis of the deposited data

How the results depend on the processing

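The counts below are of genes called in either direction by limma with Benjamini-Hochberg adjustment. The direction of the 19 collagen calls was the same in every setting that tested them (24, or 23 for Col9a2, Col4a6 and Col25a1). They had been picked as lower in the same 6 libraries, so this is a description. Among all collagens tested, 7 had the other sign with the length trend removed and 10 with length and GC trends removed. With the length trend removed the calls were 2884 genes of all tested (4605 as measured), 5 collagens (19), 3 receptors (6), 3 TGF-beta genes (5), 1 endothelial marker (3), 3 muscle markers (6), 3 keratinocyte markers (6) and 2 basement membrane partners (6). With length and GC trends removed, chosen like the GC trend alone and the left-out samples without the length trend after seeing the data, they were 7 collagens, 2 cleavage and cross-linking genes (6), 3 TGF-beta genes, 1 endothelial marker, 3 keratinocyte markers and 3 basement membrane partners, and the log2 ratio of Col5a1 to Col5a2 differed by 0.24 (-0.09 as measured). The GC trend alone gave 3 keratinocyte markers. The replicate block gave 16 folding genes (8), 10 TGF-beta genes, 6 fibroblast markers (3), 8 endothelial markers and 10 muscle markers (6 higher and 4 lower), and it changed no collagen call but those of Col3a1, Col27a1, Col4a2 and Col15a1. The block with the length trend removed gave 11 collagens, 5 proteases (3), 5 fibroblast markers and 3 basement membrane partners. Scaling by total bases, which moved the median log2 change of all genes from -0.13 to -0.41, gave 15 folding genes, 5 proteases, 8 TGF-beta genes, 6 fibroblast markers, 6 endothelial markers and 10 basement membrane partners. Quantile normalisation gave 5 folding genes, and median-of-ratios scaling gave 3 keratinocyte markers. Without a filter, which adds low genes to the adjustment, the calls were 2144 genes, 5 folding genes, 3 cleavage and cross-linking genes, 4 fibril-binding genes (8), 2 receptors, 1 protease, 1 TGF-beta gene, 3 cartilage cell markers (6), 0 endothelial markers, 0 keratinocyte markers and 2 basement membrane partners. Leaving out 1 sample at a time gave 388 to 6019 genes, 1 to 26 collagens, 0 to 11 collagens with the length trend removed, 1 to 13 folding genes, 0 to 6 cleavage and cross-linking genes, 1 to 12 fibril-binding genes, 0 to 8 receptors, 0 to 4 proteases, 0 to 7 TGF-beta genes, 0 to 7 basement membrane partners, 1 to 5 fibroblast, 2 to 7 cartilage cell, 0 to 6 endothelial, 1 to 3 Schwann cell (2), 2 to 11 muscle, 7 to 10 adipocyte (8) and 0 to 5 keratinocyte markers. It gave ratios of WT to HdR shares of 2.11 to 2.79 for all collagens, 2.16 to 3.19 for fibrillar, 2.15 to 3.05 for cartilage, 1.57 to 2.06 for basement membrane, 2.04 to 2.44 for FACIT, 1.85 to 2.38 for other collagens and 2.11 to 3.23 for Col1a1, Col1a2 and Col3a1 together. Log2 ratios of chains then differed by -1.15 to -0.84 for Col1a1 to Col1a2, 0.40 to 1.08 for Col3a1 to Col1a1, -0.25 to 0.02 for Col5a1 to Col5a2, 0.11 to 0.53 for Col4a1 to Col4a2, 0.34 to 0.94 for Col4a5 to Col4a6, 0.24 to 0.46 for Col6a1 to Col6a2, 0.37 to 0.85 for Col6a3 to Col6a1 and 0.01 to 0.34 for Col8a1 to Col8a2. Apart from the wider adjustment without a filter, the cause of these moves was not tested. Depth limits the members near 1 base per Mb, such as Col24a1, Col4a4, Col20a1, Col22a1 and Col6a5, where the pseudocount shrinks a change.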
